A study of Mus musculus with 6 samples.

Results

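The calsyntenins are a family of 3 genes, Clstn1, Clstn2 and Clstn3, and all 3 were found by symbol among the 17924 genes measured in mouse adipocyte cultures. The family was chosen by the measured values of Clstn2, which were much higher in cells without Nelfb, so that the difference of Clstn2 between the genotypes is given as a description, with no test. Clstn1 and Clstn3 came in by family name only. Nelfb encodes the B subunit of the negative elongation factor, which holds RNA polymerase II in a paused state shortly after it has started a transcript, and the comparison asks which mRNAs differ when that subunit is lost. Fibroblasts were isolated from the dorsal dermis of newborn mice (postnatal day 0, C57BL/6J background) and were kept in adipocyte differentiation medium for 14 days. The 3 CTL cultures were Nelfb fl/wt or Nelfb wt/wt and the 3 Nelfb-/- cultures were Nelfb fl/fl, and all of them carried Pdgfra-Cre. Cre is driven by Pdgfra sequences and acts in fibroblasts and adipocyte precursors, so that cells of other lineages in the same dish need not have lost Nelfb.

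Calsyntenins are cadherin-related membrane proteins that cross the membrane once. Their cytoplasmic tails bind the light chains of the motor kinesin-1 and the adaptors of the amyloid precursor protein APP, and their outer parts are cut off by ADAM proteases before gamma-secretase cuts the rest. They are best known from neurons, where Clstn1 takes part in vesicle transport and where Clstn2 and Clstn3 act at synapses. In fat, the 3′ part of the mammalian Clstn3 locus also gives CLSTN3B, a separate protein of the endoplasmic reticulum and lipid droplets of adipocytes, and a RefSeq list gives Clstn3b as another name for the gene.

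Levels are given in CPM (counts per 1e+06 reads over the listed genes), with no correction for length unless stated, and 3 values in a row stand for replicates 1, 2 and 3. The libraries held 21.4 M to 29.4 M reads (M, 1e+06) in CTL and 17.2 M to 24.5 M in Nelfb-/- cells, and a floor of 3 reads was worth 0.102 to 0.175 CPM. The targeted gene, Nelfb, had 17.3, 19.6 and 22.3 CPM for CTL and 5.50, 3.90 and 5.55 CPM for Nelfb-/- cells, and its log2 fold change (log2FC, Nelfb-/- relative to CTL) was -1.99 (SE 0.22, limma, adjusted p = 0.0050). Of 16252 genes tested, 1824 (11.2%) passed, which means at least 2-fold different at an adjusted p no higher than 0.05, and 1232 of these (7.58%) were higher and 592 (3.64%) lower in Nelfb-/- cells. The number of genes called was 426 to 2479 in fits that each lacked 1 library, and it was lowest without Nelfb-/- replicate 3. Beside the genotypes, CTL replicate 3 and Nelfb-/- replicate 1 stood apart on the second principal component (27.7% of the variance), and results are given without these libraries where that moves them.

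Clstn2 was close to absent in CTL and clearly expressed in Nelfb-/- cells, whereas Clstn1 and Clstn3 were expressed in every library and their groups overlapped. Groups without overlap were thus seen at 1 of 3 members, the one chosen for it, and at 38.1% of all genes tested (22% with Nelfb-/- cells higher and 16.1% with them lower). Clstn2 (ENSMUSG00000032452, chr9:97444395-98033181, minus strand, mm10) was at 0.0902, 0.140 and 0.476 CPM in the CTL libraries, which is 2, 3 and 14 reads. In the Nelfb-/- libraries it was at 53.9, 51.8 and 53.9 CPM, or 1137, 890 and 1320 reads. The first pair of CTL values lay at or under the floor of 3 reads, and CTL replicate 3 was the only CTL library clearly above it. The exact Poisson 95% interval, which covers counting error only, was 0.260 to 0.799 CPM for CTL replicate 3 and 0.0289 to 0.409 CPM for CTL replicate 2, so that these overlap. The lowest Nelfb-/- library was 109 times the highest CTL library.

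The fitted log2 difference of Clstn2 was 7.82 (SE 0.50), given as a description of the values that chose the family. Counted over pooled reads, 3347 in Nelfb-/- cells and 19 in CTL, the ratio of depth-scaled levels was 205 (exact 95% interval 131 to 341, counting error only). CTL replicate 3 gave 14 of the 19 CTL reads, and without it, an alternative chosen after seeing the data, the ratio was 465 (exact 95% interval 199 to 1433, counting error only). The log2 difference was 8.40 without CTL replicate 3, with a range of 7.42 to 8.40 over the fits that lacked 1 library. With a pseudocount of 5 reads in place of 1 it was 6.95, since the CTL values are so low. In bulk RNA, a change in the number of cells that express a gene and a change in its RNA per cell cannot be told apart, and this holds for every value here.

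The mean of Clstn2 was 0.235 ± 0.210 CPM for CTL and 53.2 ± 1.20 CPM for Nelfb-/- cells (SD, n = 3).

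**Figure D1:**
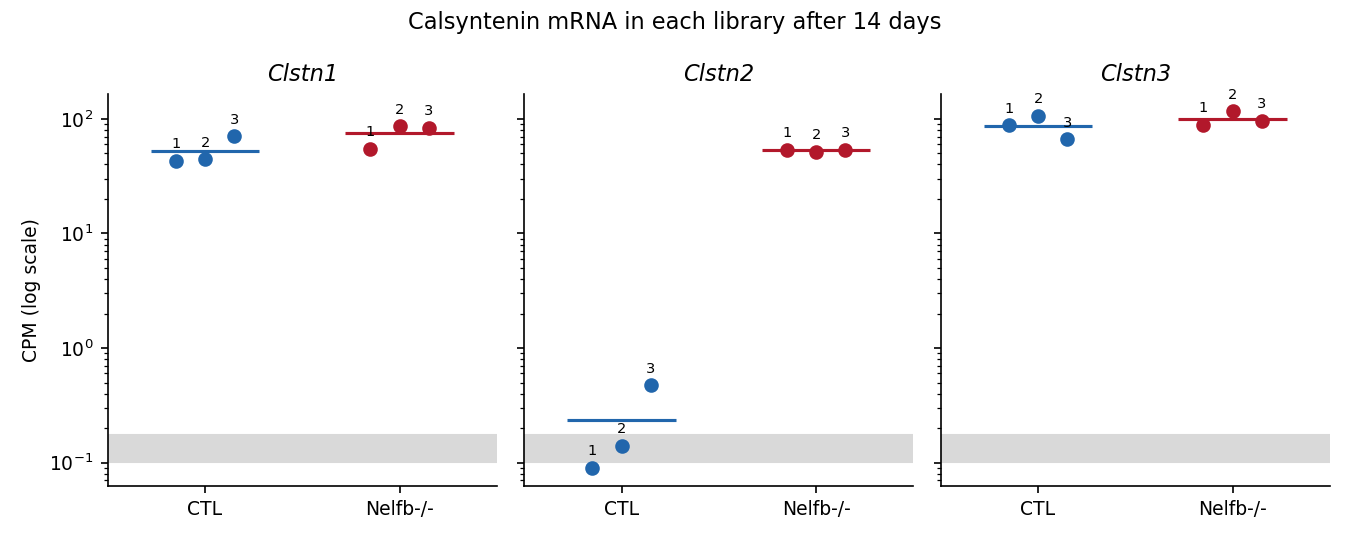
Level of each calsyntenin in CPM (log axis) in the 3 CTL (blue) and 3 Nelfb-/- (red) libraries, with replicate numbers beside the points, lines at the group means and a grey band at 3 reads (0.102 to 0.175 CPM). Clstn2 lay at 0.0902 to 0.476 CPM in CTL and at 51.8 to 53.9 CPM in Nelfb-/- libraries, while the groups overlap at Clstn1 and Clstn3.

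Clstn1 (ENSMUSG00000039953, chr4:149586468-149648899, plus strand), the member tied to kinesin-1 transport, was at 43.0, 44.5 and 70.2 CPM for CTL and 54.7, 86.4 and 83.8 CPM for Nelfb-/- cells. CTL replicate 3 lay above Nelfb-/- replicate 1, which made the groups overlap, and the other libraries were ordered by genotype. The means were 52.6 ± 15.3 and 75.0 ± 17.6 CPM (SD, n = 3), and the log2FC of 0.52 (SE 0.27, 95% interval -0.12 to 1.16) did not pass (limma, adjusted p = 0.230). Fits lacking CTL replicate 3 gave 0.75 (limma, adjusted p = 0.072), and 0.73 came without Nelfb-/- replicate 1 (limma, adjusted p = 0.089). The interval therefore includes no change and also a change of over 2-fold.

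Clstn3 (ENSMUSG00000008153, chr6:124430581-124464794, minus strand), which takes part in synapse formation and whose locus also holds CLSTN3B, was at 88.0, 106 and 66.6 CPM for CTL and 88.7, 116 and 96.4 CPM for Nelfb-/- cells. Replicates of the genotypes were interleaved, with CTL replicate 3 lowest of all 6. The log2 fold change was 0.23 (SE 0.21, 95% interval -0.27 to 0.72, limma, adjusted p = 0.496), which became 0.046 without CTL replicate 3. The values are per gene and the annotation lists 7 transcripts, so that full-length Clstn3 and CLSTN3B cannot be told apart in them. Thus 0 of the 2 members not chosen for their values passed, where 11.2% of all genes did. Both 95% intervals include 0.

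Divided by the length of annotated exon (4.662 kb for Clstn1, 5.691 kb for Clstn2 and 4.968 kb for Clstn3), levels can be compared between members. In CTL the order was Clstn3, Clstn1 and then Clstn2. Clstn3 was at 17.7, 21.4 and 13.4 CPM per kb in CTL and at 17.9, 23.4 and 19.4 CPM per kb in Nelfb-/- replicates 1, 2 and 3. Clstn1 was at 9.22, 9.55 and 15.1 CPM per kb in CTL and at 11.7, 18.5 and 18.0 CPM per kb in Nelfb-/- cells. Clstn2 was at 0.0158, 0.0246 and 0.0836 CPM per kb in CTL and at 9.47, 9.10 and 9.46 CPM per kb in Nelfb-/- cells. The ranges of Clstn3 and Clstn1 overlapped in both genotypes, and in CTL replicate 3 Clstn1 was above Clstn3. Clstn2 remained the lowest member in each Nelfb-/- library, where its 9.10 to 9.47 CPM per kb came close to the lowest level of Clstn1 in CTL, 9.22 CPM per kb.

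The summed level of the family was 27.0, 30.9 and 28.5 CPM per kb in CTL replicates 1, 2 and 3 and 39.1, 51.0 and 46.9 CPM per kb in Nelfb-/- replicates 1, 2 and 3. Clstn2 made up 0.0588%, 0.0795% and 0.293% of this sum in CTL and 24.3%, 17.8% and 20.2% in Nelfb-/- cells. Every Nelfb-/- library was above every CTL library in the sum, which includes the gene the family was chosen for. Without Clstn2, the sum was 26.9, 30.9 and 28.5 CPM per kb in CTL and 29.6, 41.9 and 37.4 CPM per kb in Nelfb-/- cells. This rest overlapped between the genotypes (exact two-sided permutation p = 0.2). The ratio of Clstn1 to Clstn3 per kb was 0.520, 0.447 and 1.12 in CTL and 0.657, 0.793 and 0.927 in Nelfb-/- cells (exact two-sided permutation p = 0.5). With 3 libraries in each group such a test cannot give a p below 0.1.

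**Figure D2:**
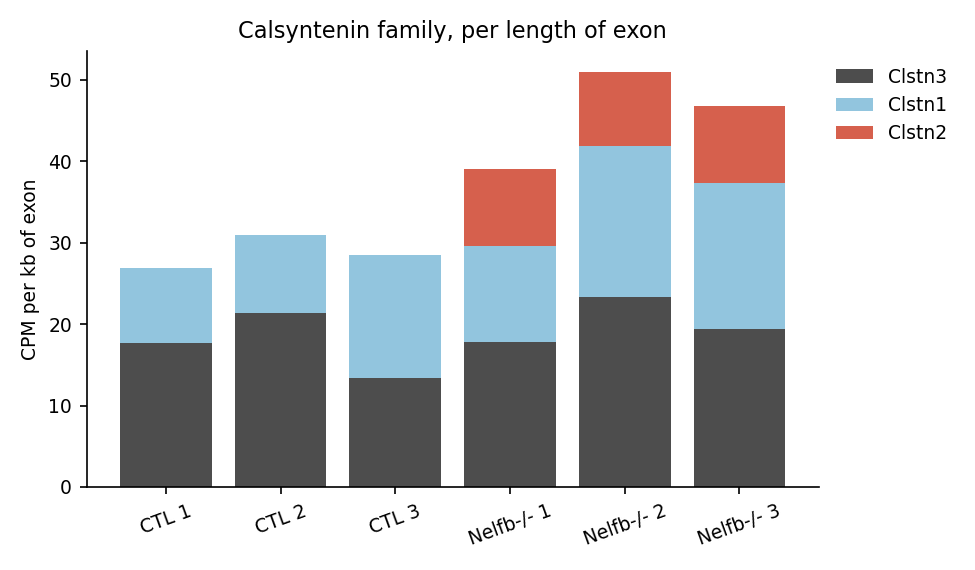
Level of the 3 calsyntenins in CPM per kb of exon, stacked for each library. Clstn2 is hardly visible in CTL libraries and adds 9.10 to 9.47 CPM per kb in Nelfb-/- libraries, on top of Clstn1 and Clstn3.

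Around the start sites, GC and CpG content set Clstn2 and Clstn1 apart from Clstn3, which the motif marked below does not. The sequences are shown for this reason and because Nelfb acts close to the start of transcription. They are from RefSeq (GRCm38.p6), run 5′ to 3′ on the strand of the gene from 140 bases before to the first 10 bases of the transcript, and have the motif TGACGTCA, a cAMP response element (CRE), in capitals. For Clstn3 the upstream of its start sites in the list is shown.
Clstn2, chr9:98033158-98033307, minus strand: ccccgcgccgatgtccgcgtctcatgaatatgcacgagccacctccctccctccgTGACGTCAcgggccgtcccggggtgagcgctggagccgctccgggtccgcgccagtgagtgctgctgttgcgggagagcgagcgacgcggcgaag
Clstn1, chr4:149586328-149586477, plus strand: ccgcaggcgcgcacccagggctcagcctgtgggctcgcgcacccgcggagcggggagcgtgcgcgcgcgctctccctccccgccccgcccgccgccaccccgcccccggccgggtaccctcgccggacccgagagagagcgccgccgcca
Clstn3, chr6:124464775-124464924, minus strand: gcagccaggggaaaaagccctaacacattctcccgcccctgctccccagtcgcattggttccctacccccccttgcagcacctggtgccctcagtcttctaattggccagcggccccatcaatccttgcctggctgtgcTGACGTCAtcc
The motif is a palindrome, so that a match counts for both strands. It began 85 bases before the start site of Clstn2 and 1 base before the upstream start of Clstn3, it was in the window neither of the downstream start of Clstn3 nor of Clstn1, and 1.79% of the 32851 RefSeq windows (250 bases before to 50 after a start) held it. The GC content of this longer window was 72.7% for Clstn2, 79.7% for Clstn1 and 58.3% and 53% for the upstream and downstream starts of Clstn3. The ratio of observed to expected CpG dinucleotides was 1.11 for Clstn2 (98.1th percentile of all windows), 1.01 for Clstn1 (94.7th percentile) and 0.334 and 0.292 for the upstream and downstream starts of Clstn3 (45.4th and 40.9th percentiles). The letters TATAAA were in no window of the family and in 13.6% of all windows.

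The members also differ in the size and surroundings of their loci. Clstn2 spans 588.8 kb, longer than 99.4% of the genes listed, against 62.4 kb for Clstn1 and 34.2 kb for Clstn3. In the annotation, Gm37661 on the same strand and 4921534H16Rik on the opposite strand lie within Clstn2, and neither is a row of the table. Whether strand was used in counting is not given in the sources used here, so that reads of 4921534H16Rik within exons of Clstn2 could not be set apart. No gene of the table overlapped a member.

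The genes nearest to Clstn2 showed no difference as large as that of Clstn2, which was itself chosen for its large difference. The nearest listed gene, Nmnat3, an enzyme of NAD synthesis whose start lies 254 kb away, was at 9.11, 11.9 and 8.74 CPM for CTL and 17.2, 9.31 and 9.14 CPM for Nelfb-/- cells, with a log2FC of 0.21 (SE 0.30, limma, adjusted p = 0.661). Slc25a36, a mitochondrial carrier 922 kb away on the other side, had a log2FC of -0.0081 (SE 0.19, limma, adjusted p = 0.984). Of the 6 neighbours tested among 10, 1 passed, a share near the 11.2% of all genes. That was Spsb4, which lies 1014 kb away and had a log2FC of 2.13 (SE 0.54, limma, adjusted p = 0.043), a call that was lost when any single library was left out. Over the 6 genes the median was 0.24.

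Around Clstn1, 1 of 10 neighbours passed, where 11.2% of all genes did. This was the lipid kinase gene Pik3cd (log2FC 2.42, SE 0.35, limma, adjusted p = 0.0096), whose call was lost without Nelfb-/- replicate 3. The nearest, Ctnnbip1, an inhibitor of beta-catenin, had 0.19 (SE 0.24, limma, adjusted p = 0.617). Around Clstn3, 3 of 10 passed, 1 higher and 2 lower, beside the same 11.2% of all genes. The complement protease genes C1rl and C1ra, whose starts lie 28.3 kb and 47.6 kb away, fell by 1.06 and 1.01 on the log2 scale (SE 0.17 and 0.19, limma, adjusted p = 0.012 and 0.019), and both calls were lost without CTL replicate 1 or 2 or Nelfb-/- replicate 2 or 3. The macrophage scavenger receptor gene Cd163 rose by 3.57 (SE 0.69, limma, adjusted p = 0.020), which was lost without CTL replicate 2 or Nelfb-/- replicate 3. Pex5, the peroxisomal import receptor 49.7 kb away on the other side, had a log2FC of -0.83 (SE 0.26, limma, adjusted p = 0.075) and passed without CTL replicate 3. Clstn3 thus lay between nearest neighbours with negative values while its own value was 0.23.

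**Figure D3:**
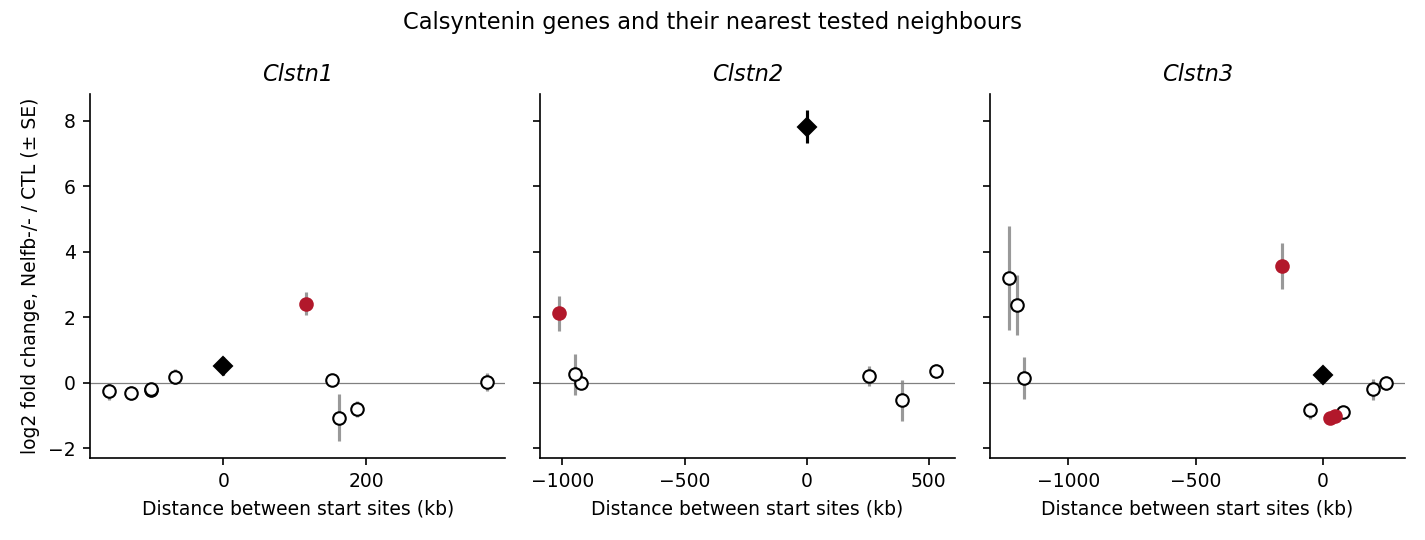
Log2 fold change (± SE) of each calsyntenin (black diamond at 0 kb) and of its nearest tested neighbours, at most 5 on each side, against the distance between start sites in kb along the chromosome. Filled red points passed the test and open points did not. Clstn2 stands at 7.82, the difference it was chosen for, while its 6 tested neighbours lie between -0.54 and 2.13.

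Among the genes whose products bind or process calsyntenins, few passed. Every Nelfb-/- library was above every CTL library at 3 of 6 genes for kinesin-1, 4 of 8 for APP and its adaptors and 3 of 11 for the proteases and gamma-secretase. The share was 22% of all genes, and 0 genes of these lists were lower in this way. For kinesin-1, 0 of 6 tested genes passed, against 11.2% of all genes (median log2FC 0.60, against 0.07 over all genes). The heavy chain gene Kif5b was at 180 to 248 CPM for CTL and 199 to 262 CPM in Nelfb-/- cells (log2FC 0.036), and the light chain gene Klc1 had 0.43 (limma, adjusted p = 0.106). Klc2, another light chain, named after its values were seen, was at 23.0, 21.5 and 18.7 CPM for CTL and 34.9, 36.8 and 36.2 CPM for Nelfb-/- cells, a log2FC of 0.78 (SE 0.14, limma, adjusted p = 0.016) that is under 2-fold. For APP, its relatives and adaptors, 0 of 8 passed (median 0.26). App was at 607, 633 and 682 CPM for CTL and 1017, 1040 and 1143 CPM for Nelfb-/- cells (log2FC 0.73, SE 0.17, limma, adjusted p = 0.035, under 2-fold), and its homologue Aplp2 had 0.15. Of the 11 proteases and gamma-secretase subunits, 1 passed (median 0.46). That was the sheddase gene Adam10, at 70.8, 61.5 and 91.8 CPM for CTL and 191, 150 and 159 CPM for Nelfb-/- cells (log2FC 1.17, SE 0.19, limma, adjusted p = 0.013), a call that was lost in fits lacking CTL replicate 1, CTL replicate 2 or Nelfb-/- replicate 3, and 2 genes of this list passed without CTL replicate 3. The gamma-secretase subunit gene Ncstn had 0.16 and did not pass.

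Of 29 genes for neurexins and other synaptic organizers, 15 were tested and 3 rose, where 7.58% of all genes did (median log2FC 0.94, against 0.07 over all genes). Slitrk6, an adhesion protein with leucine-rich repeats, was at 2.84, 3.59 and 3.50 CPM for CTL and 29.6, 46.6 and 41.6 CPM for Nelfb-/- cells, a log2FC of 3.53 (SE 0.23, limma, adjusted p = 0.0028). Il1rap, a coreceptor of interleukin 1 that also binds receptor phosphatases at synapses, rose by 1.29 (SE 0.14, limma, adjusted p = 0.0054), and the receptor phosphatase gene Ptprf by 1.02 (SE 0.20, limma, adjusted p = 0.022). Ptprf failed in fits lacking CTL replicate 1 or 2 or Nelfb-/- replicate 2 or 3 and under both other scalings, and 5 genes of the list passed without CTL replicate 3 and 6 without Nelfb-/- replicate 1. The related phosphatase gene Ptprs, the most abundant of the list, had 0.39 and did not pass.

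Calsyntenins have cadherin repeats, and 9 of the 25 tested genes of the other cadherins and protocadherins (44 in the list) rose while 0 fell, with a median log2FC of 1.19. This compares with 7.58% of all genes higher and a median of 0.07. The highest fold changes were those of Cdh10 (4.96, SE 1.07, limma, adjusted p = 0.028), Pcdh17 (4.44, SE 0.43, limma, adjusted p = 0.0041) and Cdh6 (3.21, SE 0.49, limma, adjusted p = 0.011). Cdh10, with a CTL mean of 0.254 CPM, was tested only because it is high in Nelfb-/- libraries, which fixed the direction of its difference. Pcdh17 was at 0.812, 0.653 and 2.01 CPM for CTL and 18.6, 26.1 and 25.6 CPM for Nelfb-/- cells, and like Clstn2 it was highest in CTL replicate 3 among the CTL libraries. Pcdh1 (2.71), Fat3 (2.56), Cdh19 (2.27), Cdh24 (2.19), Cdh2 (2.17) and Pcdh20 (2.07) were the other genes that rose. Without Nelfb-/- replicate 3, 4 genes of the list passed, which were Pcdh1, Pcdh17, Pcdh20 and Cdh19. The most abundant members, Cdh11, the cadherin of mesenchymal cells, and Fat1, had 1.31 and 0.64 and did not pass (limma, adjusted p = 0.124 and 0.232). None of the 9 reached the difference of 7.82 of Clstn2, but Clstn2 was chosen for the size of that difference.

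Of the 10 tested genes for proteins that surround CLSTN3B at the lipid droplet, 2 fell and 0 rose, where 3.64% of all genes fell and 7.58% rose. Their median log2FC was -0.56, against 0.07 over all genes and 0.23 for Clstn3 itself. Cidea, a protein of lipid droplet contacts in thermogenic adipocytes, was at 11.0, 7.23 and 10.03 CPM for CTL and 0, 0.0582 and 0.0408 CPM for Nelfb-/- cells, which is at most 1 read in each (limma, adjusted p = 0.0028). Plin5, a perilipin that ties droplets to mitochondria, was at 73.6, 57.6 and 60.6 CPM for CTL and 1.33, 3.43 and 2.65 CPM for Nelfb-/- cells (log2FC -4.76, SE 0.35, limma, adjusted p = 0.0033). Both calls held in every alternative run. Cidec and Plin4, the most abundant of the list, did not pass. Cidec had a log2FC of 0.029, and Plin4, another perilipin, had 918, 1324 and 843 CPM for CTL and 1688, 1691 and 1755 CPM for Nelfb-/- cells (log2FC 0.76, SE 0.25, limma, adjusted p = 0.085), with every Nelfb-/- library above every CTL library. Of the 10 genes, 1 was higher and 5 were lower in this way (22% and 16.1% of all genes). S100b, the protein whose secretion CLSTN3B promotes, also named after its values were seen, was at 2.16, 0.980 and 4.96 CPM for CTL and 1.66, 5.65 and 4.32 CPM for Nelfb-/- cells, so that the groups overlapped (log2FC 0.63, limma, adjusted p = 0.570).

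**Figure D4:**
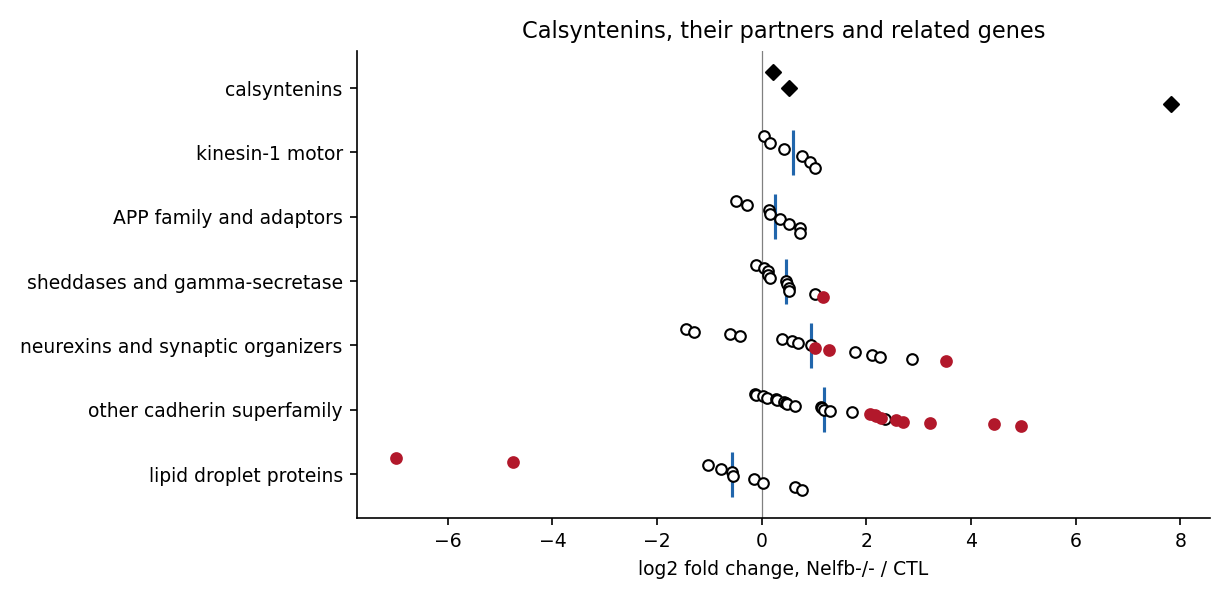
Log2 fold change of the calsyntenins (black diamonds) and of the tested genes in 6 lists of partners and related genes. Filled red points passed the test, open points did not, and blue lines mark the median of a list, which runs from -0.56 (lipid droplet proteins) to 1.19 (other cadherins). Clstn2, chosen for its large difference, lies at 7.82, above every gene of these lists.

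Markers of Schwann cells, melanocytes, macrophages and skeletal muscle were in part higher in Nelfb-/- cells. For fibroblasts 2 of 9 tested markers passed, for endothelium 1 of 8 and for neurons 0 of 6. Among the Nelfb-/- libraries, the highest level of Clstn2 was 1.04 times the lowest. For the summed markers this ratio was 3.11 for macrophages, 2.11 for melanocytes, 1.94 for skeletal muscle and 1.17 for Schwann cells. For adipocytes all 10 markers were measured, and their sum was 23834 to 40631 CPM in CTL and 17321 to 27531 CPM in Nelfb-/- cells, so that adipocyte markers were present in every library. Much of the sum was Fabp4, a fatty acid binding protein, at 12706 to 17827 and 4571 to 10808 CPM. The median log2FC of the 10 was -0.77, 7 were negative, and 4 were lower and 1 was higher in every Nelfb-/- library than in any CTL library (16.1% and 22% of all genes). Past the test 1 rose, the leptin gene Lep, and 1 fell, the resistin gene Retn (7.58% and 3.64% of all genes), whereas 0 passed without CTL replicate 2 or Nelfb-/- replicate 2 or 3, 1 without CTL replicate 1 and 4 without CTL replicate 3. The sum of fibroblast and preadipocyte markers was 2556 to 9272 and 4972 to 15836 CPM, most of it the collagen gene Col1a1, and 2 of 9 tested genes were higher, Dlk1 (48.0 to 232 and 661 to 1115 CPM) and Dpp4. This count was 0 without CTL replicate 1 or Nelfb-/- replicate 2 or 3, 1 without CTL replicate 2 and 5 without CTL replicate 3. Of the 9 fibroblast and preadipocyte markers tested 8 had positive values, with a median log2FC of 1.23, against 0.07 over all genes. For Schwann cells, the glia of peripheral nerves, 9 markers were tested, and 5 rose, among them Sox10, Erbb3, Foxd3 and Cdh19, and 1, the myelin gene Mbp, fell, a call lost without CTL replicate 1 or 2 or Nelfb-/- replicate 2 or 3. Egr2 (Krox20) was at 31.1, 31.9 and 87.0 CPM for CTL and 15.2, 24.7 and 20.6 CPM for Nelfb-/- cells. It was thus lower in every Nelfb-/- library but did not pass (log2FC -1.16, limma, adjusted p = 0.117). Of the 9 markers, 5 were higher and 2 lower without overlap of the groups (22% and 16.1% of all genes). The sum of the Schwann cell markers was 223, 213 and 447 CPM for CTL and 588, 514 and 502 CPM for Nelfb-/- cells. The larger part of this sum in most libraries was Pmp22, which fibroblasts also express, which lay between 105 and 295 CPM for CTL and 269 and 374 CPM for Nelfb-/- cells and which did not pass (log2FC 0.98, limma, adjusted p = 0.139) but passed with 1.43 without CTL replicate 3. The glial and melanocyte regulator gene Sox10 was at 6.45, 7.93 and 7.92 CPM for CTL and 45.4, 50.9 and 41.2 CPM for Nelfb-/- cells. Foxd3, a factor of the neural crest, was at 2.98 to 4.76 and 18.7 to 24.97 CPM, and like Lep, Retn, Dpp4, Erbb3, Mbp and Emcn it was named after its values were seen.

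Over all genes tested 7.58% were called higher and 3.64% lower, and the marker counts stand beside these shares. Genes under 0.448 CPM in CTL were tested only because they are high in Nelfb-/- libraries, which fixed the direction of their difference in advance. This holds for Dct, Tyrp1 and other melanocyte markers, for some muscle markers and for Emcn, so that these counts are a description. Of 9 tested melanocyte markers 7 rose, with a sum of 57.3 to 86.3 CPM for CTL and of 223, 106 and 120 CPM in Nelfb-/- replicates 1, 2 and 3. Nearly all of the CTL sum was Mitf, which did not pass (62.8, 72.4 and 47.2 CPM for CTL and 96.3, 21.6 and 26.8 CPM for Nelfb-/- cells, log2FC -0.65, and past the limits with -1.31 without Nelfb-/- replicate 1), and Sox10. The pigment gene Dct, named after its values were seen, was at 0.0902, 0.280 and 0.442 CPM for CTL and 28.9, 12.0 and 18.8 CPM for Nelfb-/- cells. Macrophage markers rose at 9 of 10 genes (their sum was 205 to 755 CPM for CTL and 6184, 1985 and 3368 CPM for Nelfb-/- libraries), a count of 2 without CTL replicate 2 or Nelfb-/- replicate 3. Skeletal muscle markers rose at 7 of 7 tested genes (sum 9.83 to 11.6 and 58.1 to 113 CPM), and both the muscle and the melanocyte count were 4 without Nelfb-/- replicate 3. In neurons, where calsyntenins are best known, 0 of 6 tested markers passed (sum 14.5 to 20.5 and 18.0 to 55.2 CPM), 2 passed without CTL replicate 3 or Nelfb-/- replicate 1, and 2 of the 10, Rbfox3 and Elavl3, were not rows of the table. The endothelial sum was 142 to 173 and 111 to 146 CPM, of which Flt1 alone gave 130 to 164 and 98.5 to 122 CPM (log2FC -0.36, limma, adjusted p = 0.160), and 1 of 8 genes was higher, Emcn. This count was 0 without CTL replicate 2 or any 1 Nelfb-/- replicate and 2 without CTL replicate 3. The part of these cell types in the difference of Clstn2 was not tested.

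**Figure D5:**
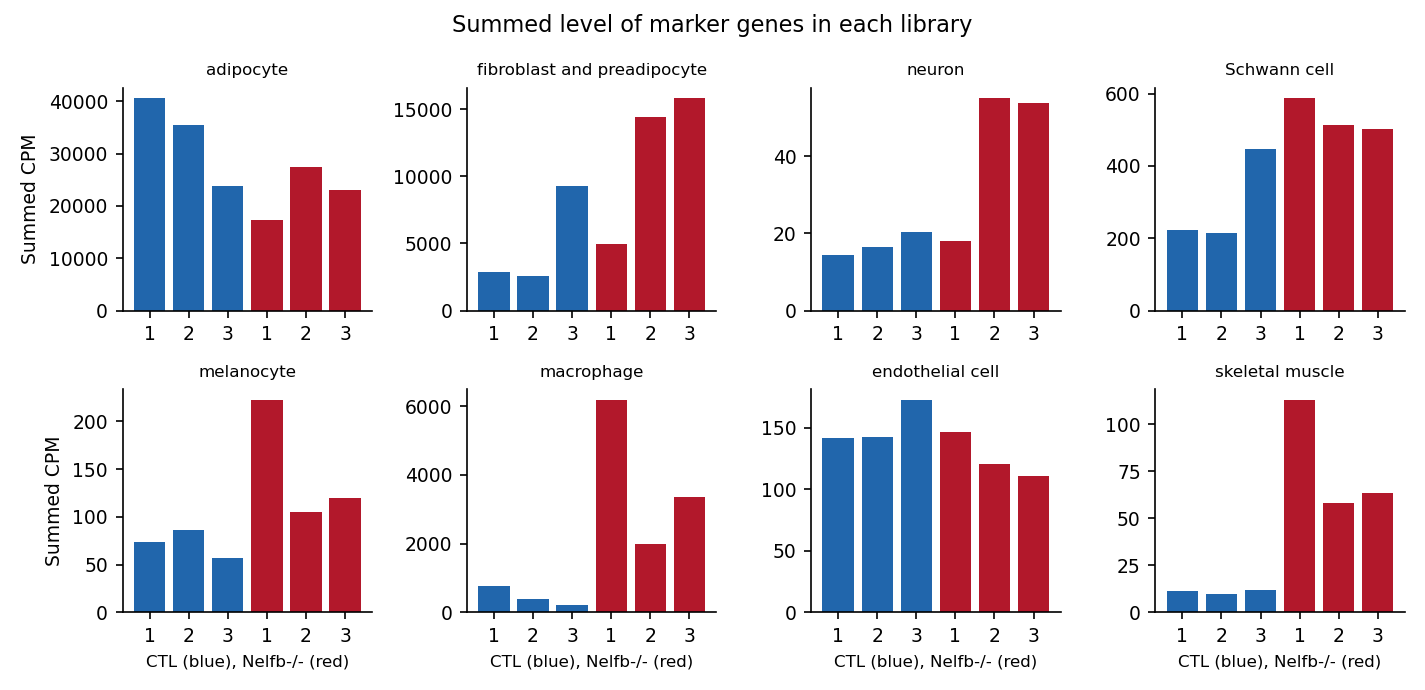
Summed CPM of the marker genes of 8 cell types in CTL (blue) and Nelfb-/- (red) replicates 1 to 3, each panel with its own axis from 0. The macrophage, melanocyte, muscle and Schwann sums are higher in every Nelfb-/- library than in any CTL library, and the neuron sum is not.

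The genes with the pattern most like each member were found by the root mean square difference of centred log2 values over the 6 libraries. For Clstn2 these were Tyrp1 (0.55), Mup15 (0.68), Il1rl1 (0.69), Mup22 (0.73) and Cxcl5 (0.86), against a median of 3.93 over all genes. Both this list and this median mostly reflect the large genotype difference for which Clstn2 was chosen. The genes found are those with a similar difference (log2FC 6.71 to 8.36), and the list is a description only. Tyrp1, an enzyme of melanin synthesis, was at 0, 0 and 0.068 CPM for CTL and 34.9, 11.5 and 20.03 CPM for Nelfb-/- cells, and Il1rl1, the receptor of interleukin 33, was at 1.04, 0.887 and 4.69 CPM for CTL and 270, 131 and 154 CPM for Nelfb-/- cells. All of these spread more among the Nelfb-/- libraries than Clstn2 did. Mup15 and Mup22 belong to a family of close copies, so that their values are uncertain. The genes most like Clstn1 were Nucks1 (0.027), Ran (0.040), S100a10 (0.050), Vgll4 (0.052) and Nol12 (0.056), with a median of 0.56 over all genes. Nucks1, a nuclear protein that binds DNA, was at 84.7, 89.0 and 138 CPM for CTL and 110, 165 and 161 CPM for Nelfb-/- cells, which again put CTL replicate 3 above Nelfb-/- replicate 1. For Clstn3 they were Fam177a2 (0.086), Gm12345 (0.090), Mob2 (0.11), Arfip2 (0.11) and Cd302 (0.11), with a median of 0.47. The 3 lists shared no gene.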

How the data were processed

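Total RNA of 6 cultures (3 CTL, 3 Nelfb-/-) was sequenced by the authors. Their methods state alignment to mm10, a minimum of 10 reads per gene and ANOVA in Partek, and the submitters' processing notes name STAR 2.7 and Partek 9.0.20.0202. The counting tool is not given in the sources used here, and replicates were not pooled. The deposited values are in CPM, each with an offset of 0.0001, together with gene positions and biotypes. All 6 columns were matched to samples by their labels.

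The offset was subtracted. The lowest values of a library rise in equal steps, which gave the worth of 1 read and the depth. Of values up to 20 reads, 72.4% to 74.9% were whole within 0.05 read, so that genes were not tested with a count model. The reads of Clstn2 came out whole. The exact intervals given for them cover counting error only and not the spread between cultures. CPM was scaled to a common depth of 22.3 M reads, and genes whose mean reached 10 reads (0.448 CPM) entered a limma fit (version 3.58.1 in R 4.3.3) of log2(value + 1), with an abundance trend and Benjamini-Hochberg adjustment over the 16252 genes. Such log2 fold changes understate the change of low genes. The 3 libraries of a group are biological replicates, and SE and p measure the spread between them. The table's 17924 genes were matched by name to GENCODE vM21 (17520 matched, 98.97% of these at the same position) for identifiers and exon lengths. In data simulated for this comparison on 16252 genes, 60 of 100 genes changed by 2 on the log2 scale and 85 of 100 changed by 4 were called. The changed genes were drawn only from the more abundant genes and the noise was normal, so that these shares need not hold for low genes.

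The members and the gene lists were chosen with earlier results of these data known. Named genes are the members, Nelfb, the passing and the 2 most abundant genes of each partner list, the nearest neighbours (5 on each side), the 5 genes most like each member and up to 3 markers per cell type, most abundant first. Klc2, S100b and further markers, which take the Schwann cell list past 3, were named after their values were seen. Neighbours not named are summarised. Some genes of the lists are not reported here. Alternatives were other pseudocounts (0.25 and 5 reads), filters, scalings (quantile, median of ratios), no variance trend, a replicate block and leaving out each library.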

Additional observations from a re-analysis of the deposited data

How the results depend on the processing

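Clstn1 and Clstn3 did not pass in any of the 14 alternatives, and over the fits that each lacked 1 library their log2FC ranged from 0.39 to 0.75 and from 0.046 to 0.38. For Clstn2 this range was 7.42 to 8.40, and a pseudocount of 5 reads gave 6.95. The number of genes called was 426 to 2479 with 1 library left out. Quantile normalization called 1848 genes, 1014 of them (54.9%) higher, against 1232 of 1824 (67.5%). It moved the median log2 fold change of all genes from 0.068 to -0.068.

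For 65 other genes named and tested, 909 values were refitted, of which 826 kept direction and side of the threshold, 65 lost a call, 5 gained 1 and 13, all near 0, changed sign. Cidec had -0.023 with quantile normalization, -0.040 with median-of-ratios scaling, and -0.23, -0.23 and -0.067 without CTL replicate 3, Nelfb-/- replicate 2 and Nelfb-/- replicate 3. Kif5b had -0.032 with median-of-ratios scaling and -0.11 and -0.072 without CTL replicate 3 and Nelfb-/- replicate 1. Slc25a36 had 0.13, 0.074 and 0.036 without CTL replicate 2, Nelfb-/- replicate 2 and Nelfb-/- replicate 3, Cd302 had -0.11 without CTL replicate 3, and Nmnat3 had -0.088 without Nelfb-/- replicate 1. Over all fits lacking 1 library the highest values were 0.12 for Kif5b, 0.37 for Nmnat3 and 0.18 for Cd302, and the lowest for Slc25a36 was -0.13. The cause was not tested.

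With the replicate number as a block, Clstn1, Clstn2 and Clstn3 had the same fold changes of 0.52, 7.82 and 0.23, with adjusted p of 0.13 for Clstn1 and 0.43 for Clstn3 (limma), and the number of genes called was 2175. The deviations of same-numbered CTL and Nelfb-/- libraries had correlations of 0.515, -0.395 and 0.518. Differently numbered ones reached similar values, such as 0.536 for CTL replicate 3 with Nelfb-/- replicate 2. The labels give no pairing, and these values cannot settle whether the cultures were paired. Depth limits Clstn2 in CTL, where 2 of 3 libraries held at most 3 reads.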
